A study of Mus musculus with 7 samples.

Results

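The Cd4 and Cd8 coreceptor loci were examined in a reporter assay of captured DNase hypersensitive sites, the accessible stretches of chromatin in which most enhancers and silencers lie. The loci were 2 windows of mm9, chr6:124780000-124850000 for Cd4 with the silencer in its first intron, and chr6:71220000-71360000 for Cd8b1 and Cd8a. Fragments were placed by their midpoints into bins of 500 bp, and a bin was used if each of 3 plasmid inputs held at least 50 reads in it. Of the 140 bins of the Cd4 window 6 passed, and of the 280 bins of the Cd8 window 6 passed, so that 12 bins of 30042 in the whole series are described. The bin rule counts input reads only.

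CD4 and CD8 are the coreceptors that hold a T cell's receptor to an MHC molecule, CD4 to class II and CD8 to class I. Thymocytes start without either, pass through a stage with both, and keep 1 of them as they mature. CD8 is made of an alpha and a beta chain, encoded by the neighbouring genes Cd8a and Cd8b1. Textbook accounts place a silencer in the first intron of Cd4, which keeps the gene off in cells that should not make CD4, while transcription of the Cd8 genes is driven by a set of enhancers around them, each active at its own stage. In the RefSeq gene order of GRCm38.p6, Cd4 lies between Gpr162 and Lag3, the latter an inhibitory receptor that also binds MHC class II, and the Cd8 pair lies between Gm1070 and Rmnd5a. That table belongs to another build than the files, so no bin below is assigned to a gene, an exon or the silencer.

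The cells were P5424, a single cell line of immature T cell type from the mouse, and all libraries came from it. Each plasmid carried a captured fragment inside the transcript made from the plasmid's own promoter, so RNA reads over plasmid reads measured output. The 7 samples were 3 plasmid inputs and 4 reporter libraries: SCP1, a synthetic core promoter, pPGK, taken from the phosphoglycerate kinase gene, pR-Ea, known here only by that name, and pPGK_PMA_I, titled for PMA and ionomycin, a phorbol ester and a calcium ionophore that together imitate signalling from the T cell receptor. The labels name this stimulus in the treatment field of all 7 samples, inputs included, so only the title sets the library apart. Each group held 1 library and no comparison below has a replicate check, so differences are between libraries. The labels give no genotype.

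In the Cd4 window 87 of 140 bins held any read, and in the Cd8 window 157 of 280 did. The Cd4 bins fell into 2 clusters. Bins 1 to 4 were chr6:124812501-124813000, chr6:124813501-124814000, chr6:124814001-124814500 and chr6:124815001-124815500, and bins 5 and 6 were chr6:124835001-124835500 and chr6:124836001-124836500. The Cd8 bins were spread along their window: bin 1 at chr6:71221501-71222000, the adjoining bins 2 and 3 at chr6:71262501-71263000 and chr6:71263001-71263500, bin 4 at chr6:71272501-71273000, bin 5 at chr6:71291001-71291500 and bin 6 at chr6:71323001-71323500. Adjoining bins are not independent, since a fragment placed in 1 bin by its midpoint can reach into the next.

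**Figure D1:**
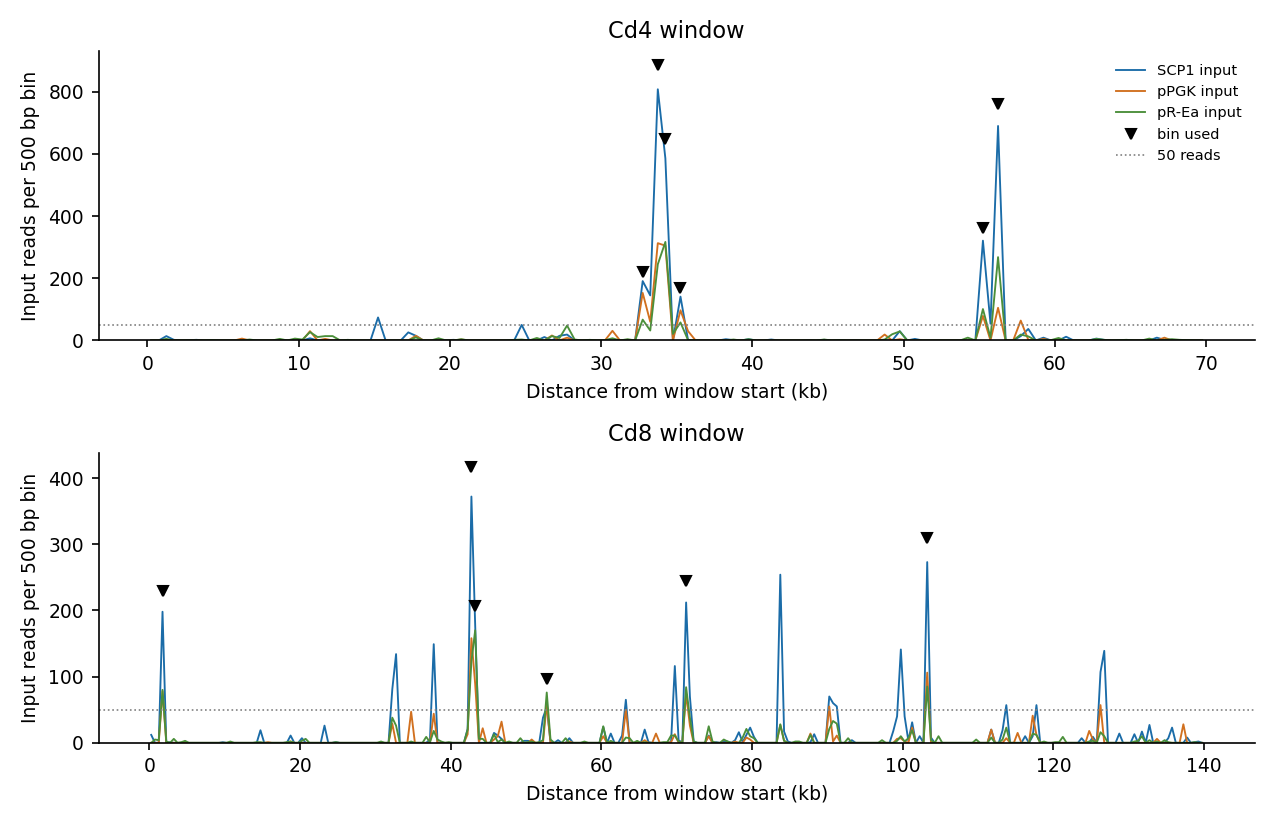
Input reads per 500 bp bin (y axis) along the Cd4 and Cd8 windows (x axis, distance from the window start in kb), with 1 line per plasmid input, triangles over the 12 bins used and a dotted line at 50 reads. Most of each window held few reads, and the SCP1 input reached 50 in 10 Cd4 and 21 Cd8 bins, more than either other input.

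The threshold on input decided most of the membership. The SCP1 input reached 50 reads in 10 bins of the Cd4 window, the pPGK input in 8 and the pR-Ea input in 6; in the Cd8 window the numbers were 21, 9 and 6. Just inside the threshold was Cd8 bin 4, with 54 SCP1, 59 pPGK and 76 pR-Ea input reads. Just outside were 4 bins that met it in 2 inputs. They included chr6:124813001-124813500, between Cd4 bins 1 and 2, with 145, 60 and 32 input reads, and chr6:71283001-71283500, with 65, 50 and 8. The other two were chr6:71310001-71310500, with 70, 55 and 21, and chr6:71346001-71346500, with 107, 57 and 16. In the measure defined below, the activities of these 4 bins with SCP1 were -0.29, 0.91, -0.33 and -0.99, and with pPGK 0.70, 1.06, -0.15 and -0.21.

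The 12 bins were shallower than most. Their median was 242.5 SCP1, 101 pPGK and 93 pR-Ea input reads, against 490, 188 and 186 over all 30042 bins. Reporter medians were 370 reads (SCP1), 279.5 (pPGK), 415 (pPGK_PMA_I) and 316 (pR-Ea). Cd4 bin 2 was the deepest, with 808, 313 and 245 input reads.

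Activity was the log2 ratio of reporter to input reads, each scaled to its total over all bins, so that 0 is the average plasmid and not a neutral insert. A bin was called above or below input at a 2-fold difference whose exact (Clopper-Pearson) 95% interval excluded equality. That interval covers counting error only, and PCR copies are not independent molecules. A standard error over distinct fragment positions (SE) is therefore given as well, which takes positions as independent and does not cover variation between cultures.

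With SCP1, 5 of 6 Cd4 bins were under 0, with a median of -0.31 and a range from -0.69 to 0.17. Of the Cd8 bins 4 of 6 were over 0, with a median of 0.17 and a range from -0.32 to 1.03. This contrast was lost by distinct positions, where 3 of 6 bins of each locus were over 0, with medians of 0.01 for Cd4 and -0.02 for Cd8. At an input minimum of 10 reads it was also lost, with 2 of 9 Cd4 and 8 of 20 Cd8 bins over 0 and medians of -0.28 and -0.23. Of the 12 bins 1 was called above input, where 3.74% of all bins were, and 0 below, where 14.6% were. The bin called above was Cd8 bin 4, with 142 reporter reads on 14 positions and 54 input reads on 17. In RPM, reads scaled to a common total over all bins, it stood at 4.26 in the reporter and 2.06 in the input, a ratio of 2.05-fold (log2 1.03, 95% interval 0.59 to 1.53, SE 0.27). Counted by distinct positions that bin was at -0.12. Its 14 reporter and 17 input positions fell short of the 50 a call needed, so that setting could not call it. Cd8 bin 1 came next, with 419 reporter and 198 input reads, at 0.73 (SE 0.56). Lowest was Cd4 bin 4, with 111 reporter and 141 input reads, at -0.69 (SE 0.60), and both this and the value of Cd8 bin 1 were little more than their own SE from input. Cd4 bin 6 was better fixed, with 594 reporter and 690 input reads on 96 input positions, at -0.56 (SE 0.23).

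**Figure D2:**
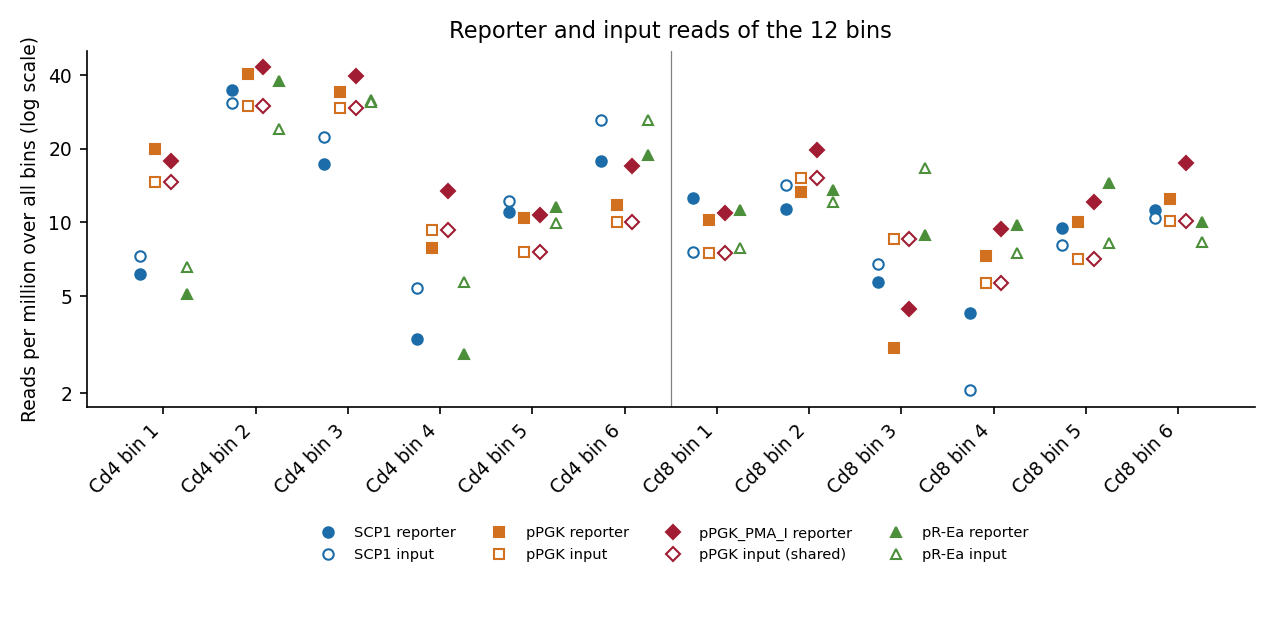
RPM over all bins (y axis, log scale) of each bin (x axis) in the 4 reporter libraries (filled) and their inputs (open); pPGK_PMA_I is set against the pPGK input. Cd8 bin 3 is the bin where the filled points of all 4 libraries lie under the open ones.

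With pPGK, 5 of 6 Cd4 bins were over 0, the median was 0.32 and the range was -0.26 to 0.45. The Cd8 bins also had a median of 0.32, with 4 of 6 over 0. By distinct positions 3 of 6 of each locus were over 0, and at an input minimum of 10 reads 8 of 9 Cd4 and 11 of 20 Cd8 bins were, with medians of 0.39 and 0.05. None of the 12 was called above input, where 3.75% of all bins were, and 1 was called below, where 9.58% were. That was Cd8 bin 3, with 77 reporter reads on 26 positions and 89 input reads on 19. Its RPM was 3.06 in the reporter and 8.52 in the input, which is 2.78-fold below input (log2 -1.48, 95% interval -1.94 to -1.02, SE 0.31). It ranked at the 4.97th percentile of all bins. By distinct positions the ratio was -0.26. The bin's 26 reporter and 19 input positions fell short of the 50 a call needed, so that setting could not call it. Nearly all its reads lay on the minus strand, 73 of the reporter and 87 of the input. The bin beside it, Cd8 bin 2, had 334 reporter and 158 input reads and stood at -0.19 (SE 0.28). In bins shifted by 250 bp a bin across their border was at -0.77 and was not called.

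Values with pPGK rested on few fragments. Input reads of the 12 bins sat on 5 to 47 positions, and Cd8 bin 5 had 74 input reads on 5 of them. In Cd4 bin 5, 139 of 263 pPGK reporter reads and 33 of 79 input reads came from a single position. That bin was at 0.45 (SE 0.43), and Cd4 bin 2, with reporter reads on 52 positions, was at 0.43 (SE 0.12). The ratios were alike and their errors were not.

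With pR-Ea the Cd4 bins had a median of -0.18 and the Cd8 bins 0.31, and 3 and 5 of 6 were over 0. None was called above input, where 0.782% of all bins were, and none below, where 8.26% were. Cd4 bin 4 came closest to a call, with 80 reporter and 58 input reads, at -0.99 (SE 0.31), and Cd8 bin 3 followed at -0.91 (SE 0.20), with 247 and 170 reads. On the high side Cd8 bin 5 had 400 reporter and 84 input reads, at 0.79 (SE 0.17), which is the 96.6th percentile of all bins. Cd4 bin 2 had 1050 and 245, at 0.65 (SE 0.15). Cd4 bin 6, at -0.48 (SE 0.11), had the smallest SE of the pR-Ea values, with 524 reporter reads on 98 positions.

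**Figure D3:**
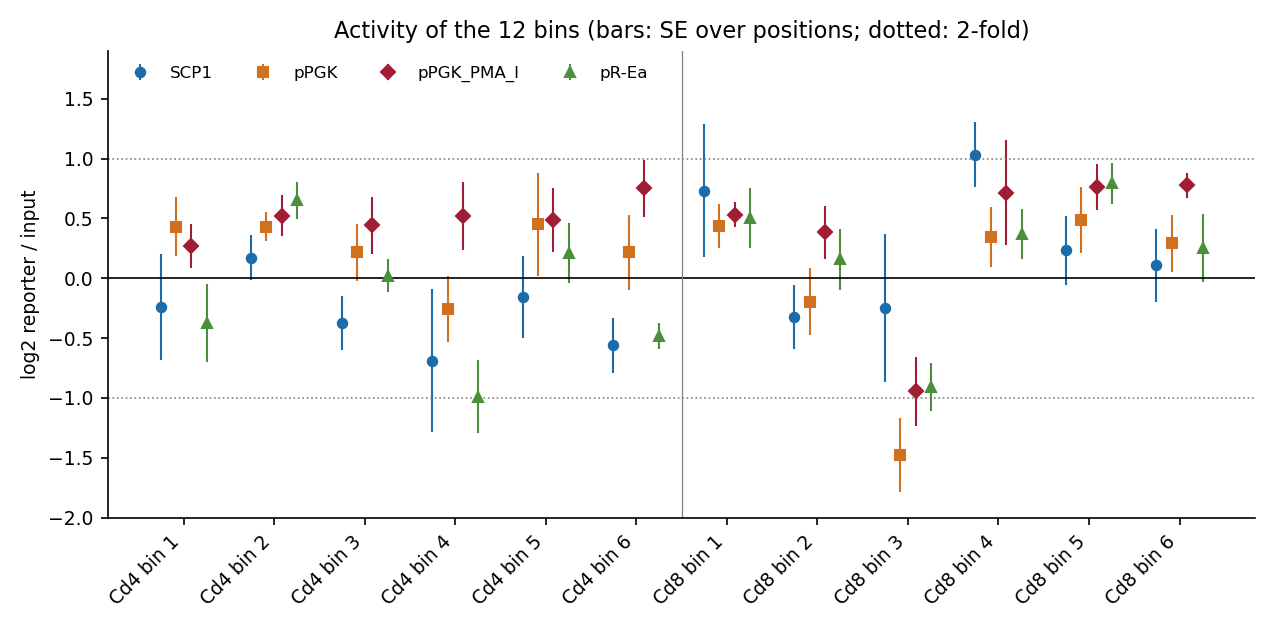
Activity (log2 reporter over input, y axis) of each bin (x axis) with SCP1, pPGK and pR-Ea and in pPGK_PMA_I; bars are 1 SE over positions and dotted lines mark 2-fold. Cd8 bin 4 with SCP1, at 1.03, and Cd8 bin 3 with pPGK, at -1.48, are the points past a dotted line.

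Ordered by the mean of the 3 promoters, the bins ran from Cd8 bin 4 at 0.58 through Cd8 bin 1 at 0.56, Cd8 bin 5 at 0.50 and Cd4 bin 2 at 0.42 down to Cd4 bin 6 at -0.28, Cd4 bin 4 at -0.64 and Cd8 bin 3 at -0.88. The 5 bins between were Cd8 bin 6 at 0.22, Cd4 bin 5 at 0.17, Cd4 bin 3 at -0.04, Cd4 bin 1 at -0.06 and Cd8 bin 2 at -0.12. None of the 11 pairs of neighbours in this order differed past the 95% interval of the difference. Cd8 bins 1, 4, 5 and 6 and Cd4 bin 2 were over 0 with every promoter, and Cd4 bin 4 and Cd8 bin 3 under 0 with every promoter. Cd8 bin 6 varied least between promoters, over a range of 0.18, and Cd8 bin 3 most, over 1.22.

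Over the 12 bins, Spearman's rho between activities was 0.69 for SCP1 and pPGK, 0.86 for SCP1 and pR-Ea and 0.74 for pPGK and pR-Ea. Over all 30042 bins the values were 0.58, 0.41 and 0.46. Bins are not replicates, some of these adjoin, and each library enters 2 of the 3 values, so they are descriptions only.

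The coreceptor bins lay well inside the distribution of all bins. The median of all bins was -0.15 for SCP1, 0.06 for pPGK and -0.03 for pR-Ea, beside -0.20, 0.32 and 0.18 for the 12. Of the 12, 5, 9 and 8 lay over that median in the same order. Setting those medians to 0 gives these same numbers over 0 by definition, so it is no separate check. In pPGK_PMA_I the median of the 12 was 0.52 against 0.06 for all bins, and 11 of 12 were above the median of all bins.

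**Figure D4:**
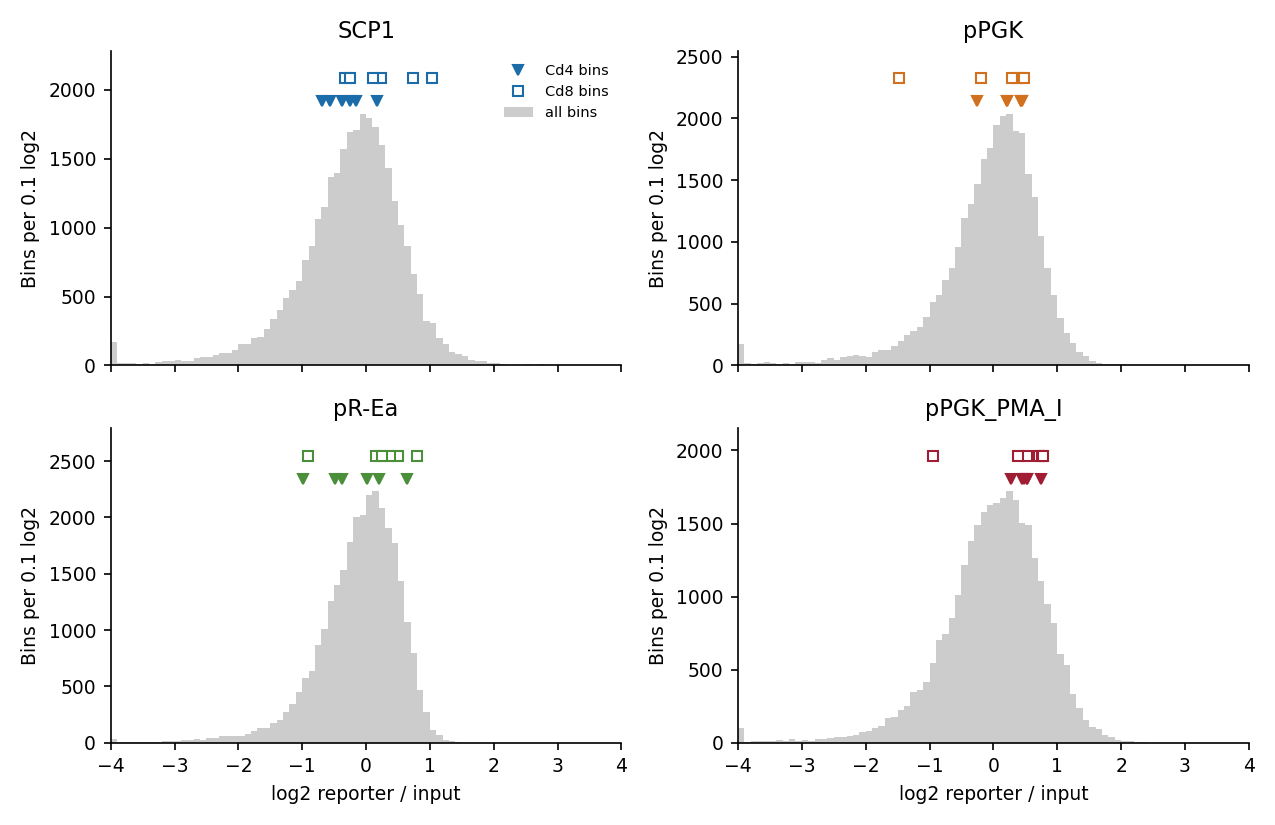
Number of bins (y axis) per 0.1 of log2 reporter over input (x axis) for all 30042 bins in each library, with triangles for the 6 Cd4 bins and squares for the 6 Cd8 bins; bins beyond 4 in size are counted in the end columns. With SCP1 the Cd4 bins sit between -0.69 and 0.17 and the Cd8 bins reach 1.03.

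The promoters were compared on activity, which divides out the differences between plasmid inputs. A call needed 2-fold and an 95% interval over positions that excluded 0. No bin of the 12 was called in any of the 3 comparisons. The share of all bins called higher and lower was 8.13% and 2.7% for pPGK over SCP1, 9.32% and 5.74% for pR-Ea over SCP1, and 5.5% and 6.57% for pR-Ea over pPGK. These comparisons share libraries, so each is given by its own values.

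For pPGK over SCP1, 6 of 6 Cd4 bins were higher with pPGK, at a median log2 difference of 0.60 and from 0.26 to 0.78. Cd4 bin 6 had the largest, 0.78 (SE 0.39, interval over positions 0.02 to 1.54), from -0.56 with SCP1 to 0.22 with pPGK. It was the 1 bin of 12 whose interval excluded 0, where 17% of all bins lay above 0 by that interval and 7.16% below. The median of all bins was 0.16, and 6 of 6 were above it; counted by distinct positions 4 of 6 Cd4 bins were over 0. The Cd8 bins had a median of -0.08 and 3 of 6 were higher. By distinct positions 4 of 6 were (median 0.15), and at an input minimum of 10 reads 13 of 20 (0.13). With the median of each activity over all bins set to 0, 1 of 6 was higher (-0.30). Cd8 bin 3 was at -1.22 (SE 0.69, interval -2.58 to 0.13). It became a call, at -1.44, when the median of each activity over all bins was set to 0. Cd8 bin 4 was at -0.69 (SE 0.37), from 1.03 with SCP1 to 0.35 with pPGK.

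For pR-Ea over SCP1 the differences ran from -0.66 in Cd8 bin 4 to 0.56 in Cd8 bin 5 (SE 0.34). Cd4 bin 2 was at 0.48 (SE 0.24, interval over positions 0.01 to 0.95), again the 1 bin of 12 whose interval excluded 0, where 23.0% of all bins lay above 0 and 14.8% below. For pR-Ea over pPGK, 5 of 6 Cd4 bins were lower with pR-Ea, at a median of -0.47, and 5 of 6 Cd8 bins were higher, at a median of 0.19, against -0.08 for all bins. The Cd8 majority fell to 3 of 6 without a mapping quality filter (median 0.04), by distinct positions (0.14) and without the position with most reads (0.01). By distinct positions and without that position 4 of 6 Cd4 bins were lower. With the median of each activity over all bins set to 0, 6 of 6 Cd8 bins were higher (median 0.28). At an input minimum of 10 reads 14 of 20 Cd8 bins were (0.10). Cd4 bin 1 was at -0.81 (SE 0.41, interval -1.60 to -0.01), with 142 reporter and 67 input reads for pR-Ea and 500 and 153 for pPGK. Cd4 bin 6 was at -0.70 (SE 0.33, interval -1.35 to -0.05). These were the 2 of 12 whose interval excluded 0, where 15% of all bins lay above 0 and 19.4% below. The difference between the 2 loci was not tested. Where the intervals include 0, as for Cd8 bin 6 at -0.04 (-0.77 to 0.69), differences of that size were not detectable in these libraries.

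The stimulated library was compared with pPGK on reporter reads, since the input is the same. Of the 12 bins 11 held a larger share of reads in pPGK_PMA_I, none past 2-fold in either direction. Of all bins 0.792% were called higher and 0.384% lower. The median log2 ratio was 0.32 for the 12, 0.16 for Cd4 and 0.43 for Cd8, against 0.05 for all bins, and 10 of 12 were above that median. By distinct positions 8 of 12 were over 0, at a median of 0.11 against -0.01 for all bins. These were 3 of 6 Cd4 bins, at a locus median of 0.005, and 5 of 6 Cd8 bins, at 0.15. For 5 of 12 the interval over positions lay above 0 and for 0 of 12 below, where 15.8% and 9.91% of all bins did so.

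Cd4 bin 4 had the largest ratio. It went from 197 reads on 17 positions in pPGK to 366 on 9 positions in pPGK_PMA_I, or from 7.82 to 13.4 RPM, which is 1.71-fold (log2 0.78, 95% counting interval 0.53 to 1.04, SE 0.10). A single position gave 81 of its pPGK and 154 of its pPGK_PMA_I reads. The interval over positions, 0.58 to 0.97, was narrower than the counting interval, so the SE understates the error here. The bin ranked at the 97.5th percentile of all bins. Counted by positions it was at -0.61, the opposite sign, because its reads lay on fewer positions. Its activity over input went from -0.26 to 0.52. On the plus strand the bin went from 148 to 303 reads and on the minus strand from 49 to 63. This bin was also the lowest Cd4 bin with each of the 3 promoters.

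The other 4 bins above 0 by positions were Cd8 bin 2, from 334 to 540 reads (log2 0.58, SE 0.18), Cd4 bin 6, from 296 to 464 (0.53, SE 0.19), Cd8 bin 3, from 77 to 121 (0.53, SE 0.20), and Cd8 bin 6, from 315 to 477 (0.48, SE 0.21). Cd8 bin 3 thus held a larger share with the stimulus and was still under input, at -0.94 (SE 0.29). Bins with little difference were Cd4 bin 5, from 263 to 291 reads (0.03, SE 0.21), Cd4 bin 2, from 1020 to 1176 (0.09, SE 0.12), and Cd8 bin 1, from 257 to 297 (0.09, SE 0.13). Cd4 bin 1 was the 1 bin with a smaller share, from 500 to 483 reads (-0.16, SE 0.29). Filters mattered here: with mapping quality applied to each file on its own 8 of 12 bins were over 0 and the median was 0.17. These were 3 of 6 Cd4 bins, at a locus median of 0.02, and 5 of 6 Cd8 bins, at 0.22. With no such filter 12 of 12 bins were over 0, at a median of 0.75, while the median of all bins moved to 0.44.

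**Figure D5:**
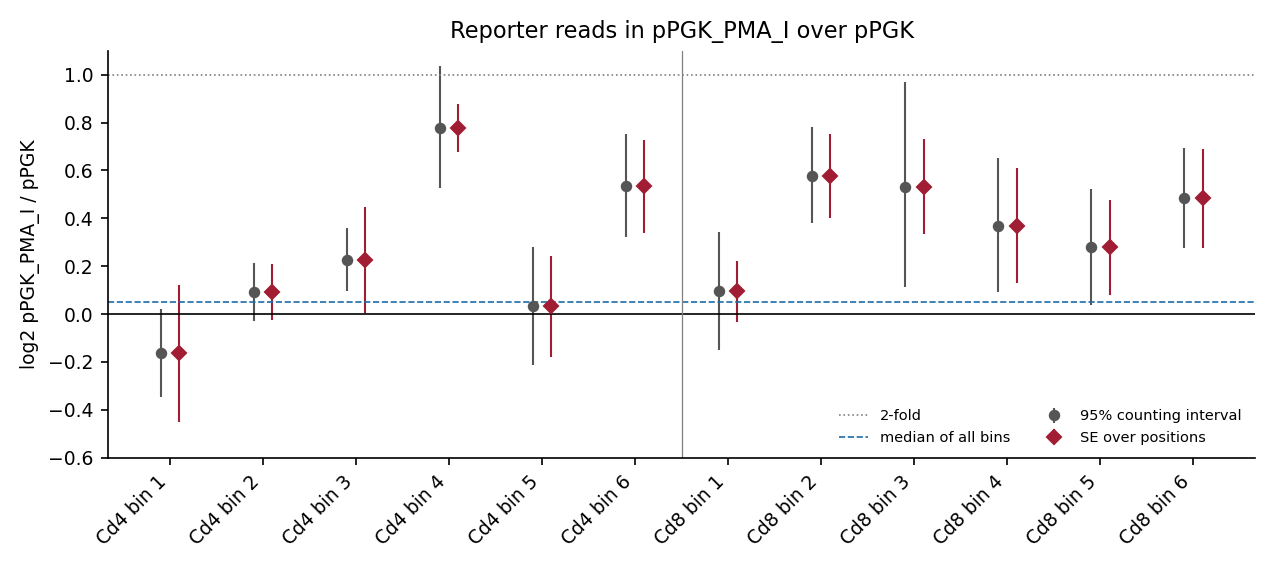
Log2 ratio of scaled reporter reads in pPGK_PMA_I over pPGK (y axis) for each bin (x axis), with 95% counting intervals (circles) and 1 SE over positions (diamonds); the dashed line is the median of all bins, 0.05. Cd4 bin 4 is highest at 0.78, and Cd4 bin 1 is the 1 bin under 0.

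In pPGK_PMA_I itself 11 of 12 bins were above input, without a call: 0 above, where 7.42% of all bins were, and 0 below, where 9.46% were. Cd8 bin 6 at 0.78 (SE 0.11), Cd8 bin 5 at 0.76 (SE 0.19) and Cd4 bin 6 at 0.75 (SE 0.24) were highest. The median of the Cd4 bins was 0.50 and that of the Cd8 bins 0.62.

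In some bins the 2 strands of the listed fragments differed in activity. Positions listed on both strands are left out of these values. In Cd4 bin 3 with pPGK, plus-strand fragments had 288 reporter and 187 input reads, at -0.65, and minus-strand fragments 568 and 118, at 0.99. The same bin in pPGK_PMA_I, which shares that input, was at -0.36 and 1.18. With SCP1 its strands were at -0.56 and -0.36 and with pR-Ea at -0.22 and 0.10. A single position gave 224 of its 856 pPGK reporter reads and 59 of its 305 input reads. Cd4 bin 5 with pPGK was at 0.80 on the plus and -0.74 on the minus strand, the latter from 38 reporter and 26 input reads. In Cd4 bin 2 the strands were close with pPGK, at 0.41 and 0.48, and with SCP1, at 0.19 and 0.12. With SCP1 the strands of Cd8 bin 3 stood apart, at -1.91 from 24 reporter and 73 input reads on the plus strand, and at 0.08 from 133 and 99 on the minus strand. No replicate exists against which these strand differences could be tested. In SCP1 and pR-Ea the strands of a bin often held nearly equal reads, as in Cd8 bin 1 with SCP1 (210 and 209 reporter, 99 and 99 input). Whether 1 molecule gave a read from each end there was not tested. If so, strand values of SCP1 and pR-Ea cannot be set against those of pPGK.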

How the data were processed

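The 4 deposited files were used, 1 per reporter library. The submitters' processing notes name mm9 as the build and 3 tools (Bowtie2, SAMtools, bedtools 2.28.0); no source used here gives their roles or filters. The deposited count values are whole reads per 5' end in files without a header. Columns 7 and 8 hold them, read here as reporter and input because column 8 was equal at all 5163548 positions shared by both pPGK files; no label states it. Counts belong to a 5' end, and a position listed on both strands was counted once, as a plus-strand fragment. The deposited mapping quality score (column 5) reached down to 0 in both pPGK files and to 30 in the others, so a position was used only if no file listed it under 30. That kept 64.4% of pPGK, 90.1% of pPGK_PMA_I and 56.1% of pPGK input reads, and 95.5% to 95.8% of the others. Over all positions the files held 71432686 pPGK, 61551175 pPGK_PMA_I, 54896033 SCP1 and 51320619 pR-Ea reporter reads, and 29903589, 45192674 and 18886639 input reads for pPGK, SCP1 and pR-Ea.

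Ratios were taken on counts plus 1, scaled to totals over 30042 bins, with Python 3.11.15, numpy 2.4.6, pandas 2.3.3 and scipy 1.17.1. A comparison of 2 reporter counts needed at least 50 reads in the pair. Where distinct positions were counted, any call needed at least 50 positions over the counts compared. The code was tested on simulated data. No p-value is given, as each group has a single library. The loci, the bins and the lists were chosen with earlier results of these data known. All 12 bins are named; the naming rule asked for bins with a call, the 3 highest and 3 lowest of each window by mean activity and the 3 deepest, and no bin was left out. In SCP1 and pR-Ea, plus- and minus-strand reads of a bin were often nearly equal in number. Whether 1 molecule gave a read from each end was not tested. If so, the SE is too small and the counting interval used for calls is too narrow in those libraries. The input minimum of 50 reads would then also stand for fewer molecules than reads in their inputs. How the calls and the choice of bins would change was not tested. No bin sequence is printed, since no mm9 genome was used here.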

Additional observations from a re-analysis of the deposited data

Results flagged for a closer look

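Reads of the windows that lay outside the 12 bins entered no main comparison. Their summed reporter reads over input exceeded the control level, that of the plasmid input, in 7 of 8 cases by a counting interval that lay above 0. In the Cd4 window the log2 ratio was 0.57 with pPGK (1123 reporter and 312 input reads), 1.04 in pPGK_PMA_I (1676 and 312) and 0.16 with pR-Ea (1264 and 415, interval 0.00 to 0.32). In the Cd8 window it was 0.20 with SCP1 (3328 and 2281), 0.47 with pPGK (2388 and 715), 0.89 in pPGK_PMA_I (3461 and 715) and 0.15 with pR-Ea (2276 and 751). The exception was SCP1 in the Cd4 window, at 0.06 (interval -0.09 to 0.22). In each window pPGK and pPGK_PMA_I share 1 input, so these cases are not separate. Outside all 30042 bins of the series the same ratio was -0.17 with SCP1, 0.44 with pPGK, 0.77 in pPGK_PMA_I and 0.00 with pR-Ea. Over the series, too, the counting interval lay above 0 in every library but SCP1. These bins were left out for few input reads in at least 1 input, and whether that raises the ratio was not tested.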

How the results depend on the processing

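Of 896 single-bin values recomputed under the alternatives, 846 stayed within the interval over positions, 49 moved outside it, and 1 called value changed sign: Cd8 bin 4 with SCP1, at -0.12 by distinct positions. Of 218 counts of calls, 181 were within 1.5 times of the reported count and 37 were not. An input minimum of 10 left 29 bins, of which 2 were lower with SCP1 (16.0% of all bins at that minimum), 2 higher with pPGK (7.8%), 4 higher and 1 lower in pPGK_PMA_I (14.7% and 8.12%), 1 higher in pPGK_PMA_I over pPGK (2.49%), 3 higher for pPGK over SCP1 (11.3%), 2 higher for pR-Ea over SCP1 (10.3%) and 4 lower for pR-Ea over pPGK (9.86%). A minimum of 100 left 4 bins, and bins shifted by 250 bp 8; in both 0 were higher with SCP1 and 0 lower with pPGK, neither called bin reached the minimum of 100, and the shifted grid splits both. Distinct positions gave 0 and 0 there (0.446% and 2.03% of all bins tested). Both called bins held fewer than the 50 positions a call needed, so that setting could not call them. It also gave 1 lower for pPGK over SCP1 (0.794%). Without a mapping quality filter 9 were higher in pPGK_PMA_I (27.1% of all bins), 3 higher in pPGK_PMA_I over pPGK (5.95%) and 1 lower for pR-Ea over pPGK (8.68%). Filtering each file on its own gave 1 lower in pPGK_PMA_I (10.8%), as did the median set to 0 (10.5%) and TMM scaling (10.4%). The last 2 settings also gave 1 lower for pPGK over SCP1 (4.87% and 4.65%). Without the position with most reads 1 was lower with pR-Ea (9.18%) and 1 higher in pPGK_PMA_I (8.2%). In that setting 1 was also lower for pPGK over SCP1 (2.44%), for pR-Ea over SCP1 (5.81%) and for pR-Ea over pPGK (8.25%). At 1.5-fold 2 of 12 were higher and 1 lower with SCP1 (12.1% and 28.0% of all bins), 2 and 2 with pR-Ea (10.2% and 19.1%), 4 and 1 in pPGK_PMA_I (21.9% and 19.4%), 1 higher in pPGK_PMA_I over pPGK (6.17%), 1 higher for pPGK over SCP1 (14.8%) and 2 lower for pR-Ea over pPGK (15.4%). For settings other than the input minimum, the shifted bins, the lower fold and, for the 2 called bins, distinct positions, the cause was not tested. Setting the median of all bins to 0 raised SCP1 values by 0.15 and left 10 of 12 bins over 0 in pPGK_PMA_I over pPGK. Chosen after seeing the data were minus-strand placement of positions on both strands and intervals over 10 bp groups of 5' ends, which changed no count of calls; nor did a pseudocount of 0.5 or, where it applied, the interval over positions. No paired analysis was possible because each group holds 1 library. Depth limits the bins with the fewest reads, such as Cd8 bin 4.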

Other observations

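Among bins of both windows with at least 50 SCP1 input reads, the highest SCP1 activity was in a bin of the Cd8 window that the rule left out. The bin chr6:71319501-71320000, singled out after its values were seen, held 833 SCP1 reporter reads on 61 positions and 141 input reads on 30, which is 4.62-fold above input (95% counting interval 3.89 to 5.60, log2 2.21, SE 0.42). That ranked at the 99.9th percentile of the 99319 bins of the series with at least 50 SCP1 input reads, of which 3.65% were above input by the 2-fold rule. A single position gave 261 of the reporter reads and 18 of the input reads, and without it the ratio was 1.86. The other inputs hardly covered the bin, with 7 pPGK and 10 pR-Ea input reads, so that 9 pPGK and 45 pR-Ea reporter reads do not show whether those promoters share the activity.

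Outside the 12 bins, 19 bins of the windows reached 50 reads in the SCP1 input. Of these 1 was above input, the bin just given, and 3 were below: chr6:71252001-71252500 at 0.25 times input, with 25 reporter and 81 input reads, chr6:124795001-124795500 at 0.336 times, with 31 and 74, and chr6:71303501-71304000 at 0.343 times, with 110 and 254. On the log2 scale the SE was 0.78, 0.56 and 0.39. Of all bins with such an input 24.3% were below. In the pPGK input 5 further bins reached 50 reads, and chr6:71283001-71283500 was above input at 1.06 (SE 0.22), with 256 reporter and 50 input reads, where 5.08% of such bins were. A single position gave 197 of those 256 reads, and without it the ratio was 0.55. With SCP1 the same bin was at 0.91 (SE 0.40).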
